A study of Rattus norvegicus with 2 samples.

Results

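The transforming growth factor beta (TGF-beta) pathway is described in microglia, the macrophages that live in brain tissue, through 8 genes taken by symbol from the 32623 genes of the deposited feature tables. They are the ligand Tgfb1, its anchor Nrros, the receptors Tgfbr1 and Tgfbr2, and the Smad genes Smad2, Smad3, Smad4 and Smad7, and all 8 had UMIs (unique molecular identifiers, counts of captured RNA molecules) in both libraries. Cells were flow-sorted as microglia from hippocampi of male rats at gestational day 20, and single-cell RNA libraries were made in droplets. The dexamethasone library came from 7 pooled embryos with prenatal exposure to the synthetic glucocorticoid dexamethasone, and the control library from 7 pooled embryos without it. The strain, the dose and timing of dexamethasone and the sorting markers are not given in the sources used here. With 1 library per group, no test was possible, and exposure, embryo pool and library preparation cannot be told apart. Every interval given is at the 95% level and covers counting error only.

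TGF-beta1 is secreted in a latent form that must be released before it can bind its receptors. Nrros (also called LRRC33) holds the latent form on the surface of microglia and other macrophages. The released ligand binds the type II receptor Tgfbr2, which activates the type I receptor Tgfbr1. This kinase phosphorylates Smad2 and Smad3, which enter the nucleus with Smad4, while Smad7 is an inhibitory Smad whose own gene is switched on by the pathway. In the mouse, microglia need this signal to reach and keep their mature identity.

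Promoter windows of the ligand and of both receptors are shown because dexamethasone acts through the glucocorticoid receptor, a DNA-binding factor, and because the receptors differed in direction between the libraries. They are taken from RefSeq on the GRCr8 assembly, which is not the assembly of the counts, and run from 250 bases before to 50 after the start of the gene, 5′ to 3′ on the strand of the gene. All 8 members matched, with 9 windows, since Smad2 has 2. Capitals mark 3 motifs on either strand. The motif AGAACA is a half-site of the glucocorticoid receptor, and full response elements were not searched for. The GC box is spelled GGGCGG and is bound by Sp factors of general transcription. The CCAAT box is named by its letters. The windows lie at chr1:90324062-90324361 (plus strand) for Tgfb1, chr5:66449148-66449447 (plus strand) for Tgfbr1 and chr8:124761420-124761719 (minus strand) for Tgfbr2.
Tgfb1: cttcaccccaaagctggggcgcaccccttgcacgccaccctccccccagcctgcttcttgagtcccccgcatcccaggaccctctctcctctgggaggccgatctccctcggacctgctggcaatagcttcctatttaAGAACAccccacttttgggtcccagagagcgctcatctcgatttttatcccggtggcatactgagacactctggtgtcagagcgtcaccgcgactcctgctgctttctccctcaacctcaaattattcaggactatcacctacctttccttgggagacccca
Tgfbr1: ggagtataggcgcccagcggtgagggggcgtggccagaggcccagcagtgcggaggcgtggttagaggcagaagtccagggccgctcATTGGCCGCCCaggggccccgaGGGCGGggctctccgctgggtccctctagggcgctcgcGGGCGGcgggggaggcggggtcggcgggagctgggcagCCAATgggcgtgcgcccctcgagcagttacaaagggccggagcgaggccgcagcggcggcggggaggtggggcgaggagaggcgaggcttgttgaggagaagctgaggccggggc
Tgfbr2: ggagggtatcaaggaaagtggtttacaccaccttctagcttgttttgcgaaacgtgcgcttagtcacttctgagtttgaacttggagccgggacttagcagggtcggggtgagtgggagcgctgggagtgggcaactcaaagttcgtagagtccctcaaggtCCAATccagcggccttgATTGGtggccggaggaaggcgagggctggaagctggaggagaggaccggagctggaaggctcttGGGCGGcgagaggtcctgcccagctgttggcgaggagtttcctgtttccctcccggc

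The Tgfb1 window held AGAACA at base 139, and the windows of both receptors held none. Among the 9 windows, AGAACA was found in 2, those of Tgfb1 and Smad4, and in 20.7% of all 33469 windows of this length. The Smad4 window was 31.7% G or C, against 57.7% to 82.7% in the other windows. Whether the Smad4 window holds the promoter in use was not tested. GGGCGG was in 6 of 9 and in 33.1% of all, and CCAAT was in 5 of 9 and in 37.5% of all. The Smad2 windows overlap, so that boxes of both kinds in the shared stretch were counted in each. CAGAC, a Smad-binding element, was in 0 of 9 and in 50.1% of all. In the Tgfbr1 window a reverse CCAAT box and a reverse GC box adjoin and form 1 run of capitals. These matches describe letters in a window and no binding was measured.

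Barcodes numbered 4328 in the dexamethasone and 8342 in the control library, with 42611920 and 69940778 UMIs, and 5 occurred in both. After filtering, 4199 and 8044 cells were clustered without any gene of the pathway lists. Microglia-like cells numbered 3300 (78.6%) in the dexamethasone and 6357 (79.0%) in the control library, with median depths of 9288.5 and 7996 UMIs. Their mitochondrial share of UMIs was 3.14% in the dexamethasone and 6.0% in the control library. Of 15 microglia markers, Siglech was at 0 in both libraries. The other classes were border-associated-macrophage-like (295 and 653 cells, the macrophages of meninges and vessels), neuron-like (120 and 488), erythroid-like (99 and 128) and neutrophil-and-monocyte-like (91 and 113). Levels are given as CPM, the UMIs of a gene scaled to a fixed total of UMIs over the cells summed. They are not scaled to transcript length, so no gene is ranked against another.

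The ligand and its anchor were genes of macrophages and other myeloid cells in these samples, while Smad2 and Smad4 were also present in neuron-like cells. In microglia-like cells Tgfb1 stood at 286.3 CPM (280.7 to 292.1) in the dexamethasone and 275.6 CPM (271.3 to 279.9) in the control library. Border-associated-macrophage-like cells had 317.4 and 291.6 CPM, and neutrophil-and-monocyte-like cells 187.1 and 230.2 CPM. Neuron-like cells had 51.0 and 60.2 CPM and erythroid-like cells 14.2 and 15.1 CPM. The ranges between the libraries did not overlap for neighbours in this order of 5 classes. Over whole classes, border-associated macrophages were thus highest, microglia close behind and erythroid cells lowest. The first place held for the larger border-associated-macrophage-like cluster, at 319.4 CPM in the dexamethasone and 316.2 CPM in the control library. The smaller cluster lay below microglia-like cells, at 279.2 CPM (on 36 UMIs) and 239.8 CPM.

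Nrros followed Tgfb1 across the classes. In microglia-like cells it stood at 172.3 CPM (167.9 to 176.8) in the dexamethasone and 152.3 CPM (149.2 to 155.6) in the control library. Border-associated-macrophage-like cells had 172.5 and 174.0 CPM, and neutrophil-and-monocyte-like cells 160.0 and 145.6 CPM. The ranges of the microglia-like and the neutrophil-and-monocyte-like class overlapped, so these neighbours were not separated. Neuron-like cells had 22.2 and 35.8 CPM.

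By whole class, both receptors were highest in microglia-like cells, but only Tgfbr1 was separated there from the border-associated macrophages. Tgfbr1, the kinase that phosphorylates the Smads, stood at 77.6 CPM (74.7 to 80.6) in the dexamethasone and 71.9 CPM (69.8 to 74.2) in the control library. Border-associated-macrophage-like cells had 61.0 and 40.5 CPM and neutrophil-and-monocyte-like cells 26.2 and 12.5 CPM. A log2 ratio of at least 0.32 in either direction was taken as the limit for naming a difference, with no test behind it. Tgfbr1 was the 1 member beyond this limit, higher, in microglia-like against border-associated-macrophage-like cells in both libraries, where 21.4% of 10716 genes with at least 100 UMIs were. Its log2 ratios were 0.35 (0.12 to 0.58) and 0.83 (0.62 to 1.04) in the dexamethasone and control library. With cells assigned 1 by 1 from their marker genes, they were 1.14 and 1.85, and Smad7 was beyond the limit too, at 1.63 and 1.76 in place of 0.21 and 0.49. In the dexamethasone library Tgfbr1 came within the limit, at 0.28 to 0.30, with per-cell means, with thinned cells and with mitochondrial, ribosomal protein and haemoglobin genes left out of the total. Tgfbr2, the ligand-binding receptor, stood at 56.2 CPM (53.8 to 58.8) and 71.9 CPM (69.7 to 74.1) in microglia-like cells. It had 53.8 and 63.3 CPM in border-associated-macrophage-like cells, and the ranges of these classes overlapped. The larger border-associated-macrophage-like cluster had 55.8 and 76.4 CPM of Tgfbr2. Log2 ratios of microglia-like cells over that cluster were 0.011 (-0.24 to 0.27) and -0.088 (-0.27 to 0.10), so Tgfbr2 was not higher in microglia there.

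By whole class, the Smads fell into a group highest in microglia-like cells and a group highest in neuron-like cells. Smad7, the inhibitory Smad, stood at 59.5 and 61.3 CPM in microglia-like, 51.6 and 43.6 CPM in border-associated-macrophage-like and 35.3 and 28.2 CPM in neuron-like cells, again with the dexamethasone library given before the control. The larger border-associated-macrophage-like cluster had 54.2 and 58.8 CPM of Smad7. Log2 ratios of microglia-like cells over that cluster were 0.13 (-0.12 to 0.39) and 0.060 (-0.15 to 0.28), with intervals that held 0. Smad3 stood at 10.4 and 8.47 CPM in microglia-like and 7.91 and 6.99 CPM in border-associated-macrophage-like cells. In the other classes Smad3 rested on 1 to 11 UMIs per library. Smad2, the other receptor-activated Smad, had 45.7 and 45.4 CPM in neuron-like, 41.5 and 38.3 CPM in microglia-like and 35.0 and 29.6 CPM in border-associated-macrophage-like cells. Smad4, the shared partner, had 28.8 and 25.8 CPM in neuron-like and 18.8 and 13.7 CPM in microglia-like cells. Its ranges in the microglia-like, border-associated-macrophage-like and neutrophil-and-monocyte-like classes overlapped. Log2 ratios of microglia-like over neuron-like cells were -0.62 (-1.23 to 0.07) and -0.91 (-1.31 to -0.49) for Smad4. For Smad2 they were -0.14 (-0.62 to 0.39) and -0.24 (-0.54 to 0.07), so that in both libraries the interval held 0.

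**Figure D1:**
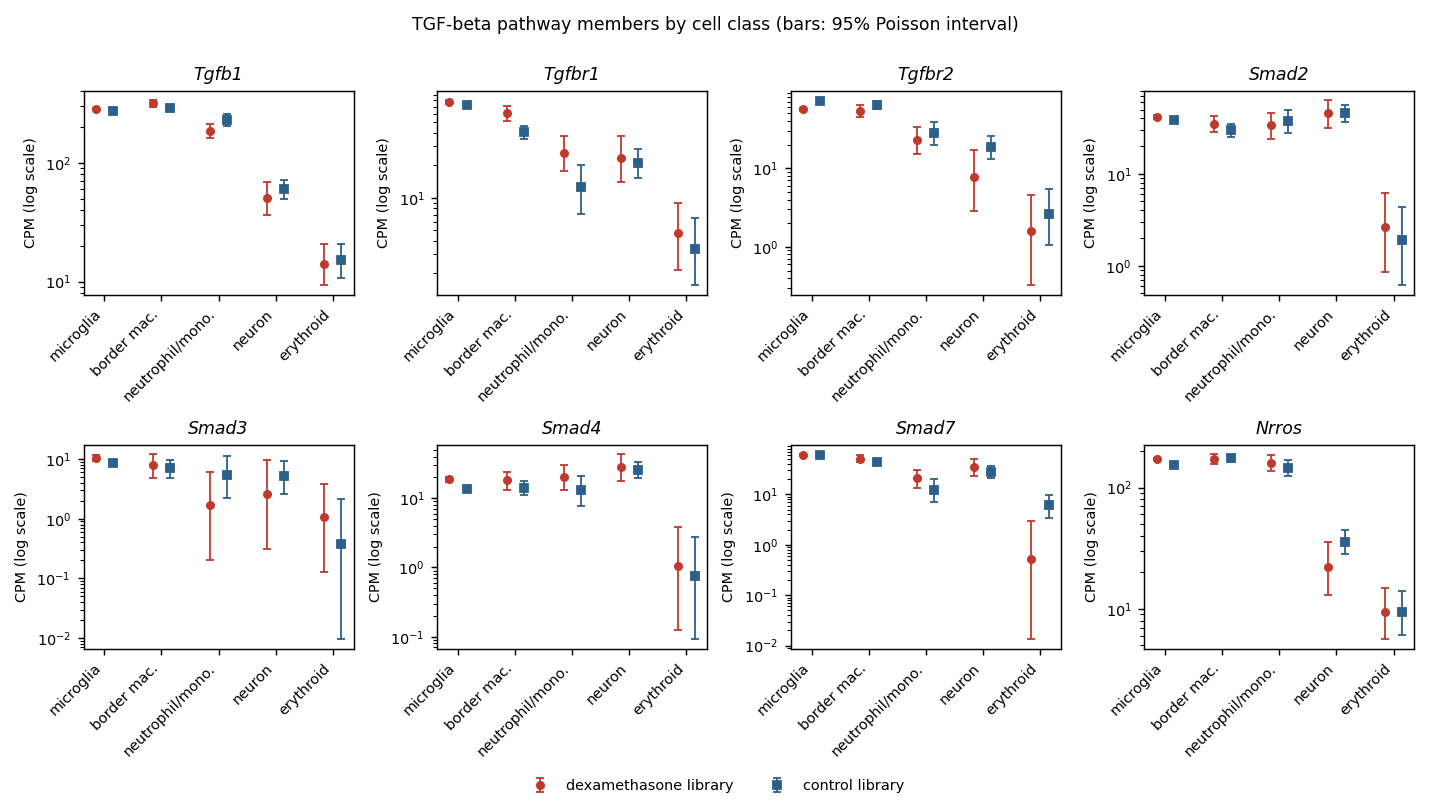
CPM (log axis, scaled per gene) of the 8 members in each cell class, 1 point per library with its exact Poisson interval. Tgfb1 and Nrros are high in the 3 myeloid classes, Tgfbr1 is highest in microglia-like cells, and Smad2 and Smad4 are highest in neuron-like cells.

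Microglial genes also had UMIs in erythroid-like and neuron-like cells, which should lack them, and this sets a background for the members. In erythroid-like cells, 6 microglial genes chosen for this after their values were seen (Csf1r, C1qa, C1qb, P2ry12, Cx3cr1 and Trem2) stood at 4.83% to 8.05% of their microglia-like level. Tgfb1 stood there at 4.94% and 5.48%, and Nrros at 5.48% and 6.2%, so that the level of both members in erythroid-like cells was that of the microglial genes. In neuron-like cells the 6 genes stood at 11.2% to 14.98% in the dexamethasone and 16.2% to 22.4% in the control library. Tgfb1 stood there at 17.8% and 21.9%, Nrros at 12.9% and 23.5%, and Tgfbr2 at 13.9% and 25.9%, all near that background. Tgfbr1 was at 30.3% and 29.2% and Smad7 at 59.3% and 46.0%, while Smad2 reached 110.1% and 118.4% and Smad4 153.3% and 188.1%. Smad3 was at 25.2% and 62.0%, on 2 and 11 UMIs. Neuron-like cells were shallower, with median depths of 5466.5 and 1696 UMIs. Border-associated-macrophage-like cells held microglial genes too. P2ry12 stood there at 93.0 and 100.4 CPM, against 174.4 and 215.8 CPM in microglia-like cells. Sall1 stood at 42.9 and 54.1 CPM, against 194.6 and 202.0 CPM. How much of the RNA in that class came from microglia was not tested.

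The border-associated-macrophage-like class was made of a pair of clusters with unlike receptor levels. Cluster 7, led by Igfbp3 and Ms4a7, held 282 dexamethasone and 495 control cells, and cluster 11, led by Ccl24, Clec10a and Cd163, held 13 and 158. In the control library, cluster 11 had 14.7 CPM of Tgfbr1 against 52.8 CPM in cluster 7, 11.5 against 58.8 CPM of Smad7 and 35.8 against 76.4 CPM of Tgfbr2. The log2 ratios of cluster 11 over cluster 7 were -1.84 (-2.54 to -1.21) for Tgfbr1, -2.35 (-3.14 to -1.65) for Smad7 and -1.09 (-1.54 to -0.67) for Tgfbr2. These 3 members were lower beyond the limit in both libraries, where 16.5% of 6147 genes were, and Smad3 was higher, where 11.7% were. In the dexamethasone library cluster 11 had 13 cells, with 5 UMIs of Tgfbr1, 2 of Tgfbr2, 2 of Smad3 and 0 of Smad7. There the intervals held 0 for Tgfbr1 (-2.32 to 0.57) and Tgfbr2 (-4.91 to 0.03), and for Smad3 they held 0 in both libraries. Nrros was not lower, at 197.0 CPM in cluster 11 and 163.1 CPM in cluster 7 of the control library. Against cluster 7 alone, the 1 member higher beyond the limit in microglia-like cells of both libraries was Smad3, beside 20.8% of 10675 genes. Its log2 ratios were 0.47 (-0.20 to 1.22) and 0.56 (-0.10 to 1.30), with 19 UMIs in cluster 7 of each library and intervals that held 0. Tgfbr1 was just inside the limit in the dexamethasone library, with an interval of 0.09 to 0.56, and at 0.45 (0.23 to 0.67) in the control.

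Microglia-like cells formed 6 clusters, and the members differed between them although no pathway gene had been used to cluster. Cluster 0 was led by Fos, F11r, Tmem119 and P2ry12, of which Tmem119 and P2ry12 mark homeostatic microglia and Fos is an early response gene. At the finer resolution of 1.0 it matched a cluster led by F11r and Tmem119 (359 dexamethasone and 1254 control cells). It also matched a cluster led by Ccl12 and Egr1, with Fos (172 and 92 cells). Levels in cluster 0 were taken over all its cells. Cluster 1 was led by Edn3 and Cxcl17, and cluster 2 by Cd8a, Spp1, Csf1 and Gpnmb. Of these, Spp1, Csf1 and Gpnmb are genes of axon-tract-associated microglia, and the chemokine genes Ccl2 and Ccl3 were among its leading genes too. At resolution 1.0, a cluster led by Tnfsf18 and Csf1, with Spp1, Ccl7 and Ccl2, held 175 dexamethasone and 251 control cells and was left unnamed. Clusters 6, 8 and 5 were cycling and were led by Mcm genes of DNA replication, histone genes and mitotic genes such as Cdc20. Cluster 0 held 18.2% of microglia-like cells in the dexamethasone and 24.0% in the control library, cluster 6 held 27.2% and 20.2%, and the other 4 clusters differed by less than 2 points.

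Cluster 0 had the highest level of Tgfbr1, Tgfbr2, Smad7 and Smad4 in both libraries. Its Tgfbr1 level was 119.5 CPM in the dexamethasone and 109.8 CPM in the control library, and the other 5 clusters lay between 44.4 and 77.4 CPM, with no overlap. Its Smad7 level was 82.1 and 87.4 CPM against 44.1 to 64.9 CPM elsewhere, also with no overlap. Against the other microglia-like cells, log2 ratios in cluster 0 were 0.74 (0.60 to 0.88) and 0.77 (0.66 to 0.87) for Tgfbr1 and 0.55 (0.38 to 0.71) and 0.63 (0.52 to 0.75) for Smad7. They were 0.53 (0.36 to 0.70) and 0.42 (0.31 to 0.53) for Tgfbr2 and 0.47 (0.16 to 0.77) and 0.38 (0.12 to 0.63) for Smad4. These 4 of 8 members were higher beyond the limit in both libraries, where 14.6% of 10601 genes were. Its Tgfbr2 level, 76.9 and 91.3 CPM, overlapped that of cluster 2.

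Cluster 2, the Spp1-led cluster, joined a high level of Tgfbr2 with a low level of the inhibitory and the shared Smad. Smad3 was highest there, at 15.4 and 13.3 CPM, with no overlap with the next cluster (10.5 and 9.52 CPM in cluster 0). Its log2 ratios over the other microglia-like cells were 0.78 (0.44 to 1.10) and 0.93 (0.66 to 1.20). Tgfbr2 stood at 66.6 and 85.3 CPM. Tgfbr1, at 77.4 and 75.6 CPM, lay within the limit, with log2 ratios of -0.0054 and 0.094. Smad7 was at its lowest, 44.1 and 46.5 CPM, with no overlap with any other cluster, and Smad4 had its lowest mean over the libraries, at 15.4 and 10.8 CPM, where each other cluster but cluster 0 overlapped. In both libraries 2 members were higher beyond the limit, Smad3 and Tgfbr2, beside 9.08% of genes, and 2 were lower, Smad7 and Smad4, beside 25.6%. With every cell thinned to the same depth, the Smad4 log2 ratio in the dexamethasone library turned to 0.073.

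Receptor levels differed among the 3 cycling clusters. In mitotic cluster 5, Tgfbr1 was lowest, at 54.7 and 44.4 CPM, and 4 members (Tgfbr1, Tgfbr2, Smad2 and Smad3) were lower beyond the limit in both libraries, where 17.4% of genes were. In histone-led cluster 8, Tgfbr2 was lowest, at 37.8 and 46.1 CPM, with log2 ratios of -0.63 (-0.89 to -0.38) and -0.71 (-0.88 to -0.54), and Smad3 was lower too, beside 11.8% of genes. In Mcm-led cluster 6 both receptors lay within the limit, Tgfbr1 at 76.1 and 71.9 CPM and Tgfbr2 at 50.4 and 67.2 CPM. Smad2 had its highest mean over the libraries there, at 44.2 and 41.9 CPM, with overlapping ranges in clusters 0 and 8. In cluster 6, 1 member, Smad3, was lower beyond the limit, beside 6.71% of genes. At the finer clustering of resolution 1.0, the log2 ratio of Smad3 in cluster 6 turned to 0.025 in the dexamethasone library. The same ratio in cluster 5 turned to 0.022 after thinning. Smad3 rested on 29 to 116 UMIs per cluster in the dexamethasone library, so its order is the least secure.

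The ligand and its anchor varied little by cluster. Tgfb1 ran from 246.3 CPM in cluster 5 to 323.3 CPM in cluster 0 in the dexamethasone library and from 248.8 to 292.9 CPM in the control. Nrros ran from 142.7 CPM in cluster 8 to 196.8 CPM in cluster 0 and, in the control, from 131.2 CPM in cluster 5 to 168.1 CPM in cluster 0. Neither was beyond the limit in both libraries in any of the 6 comparisons of a cluster with the other microglia-like cells. In cluster 1, Tgfbr1 alone was beyond the limit, lower at 63.1 and 54.3 CPM, beside 11.4% of genes.

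**Figure D2:**
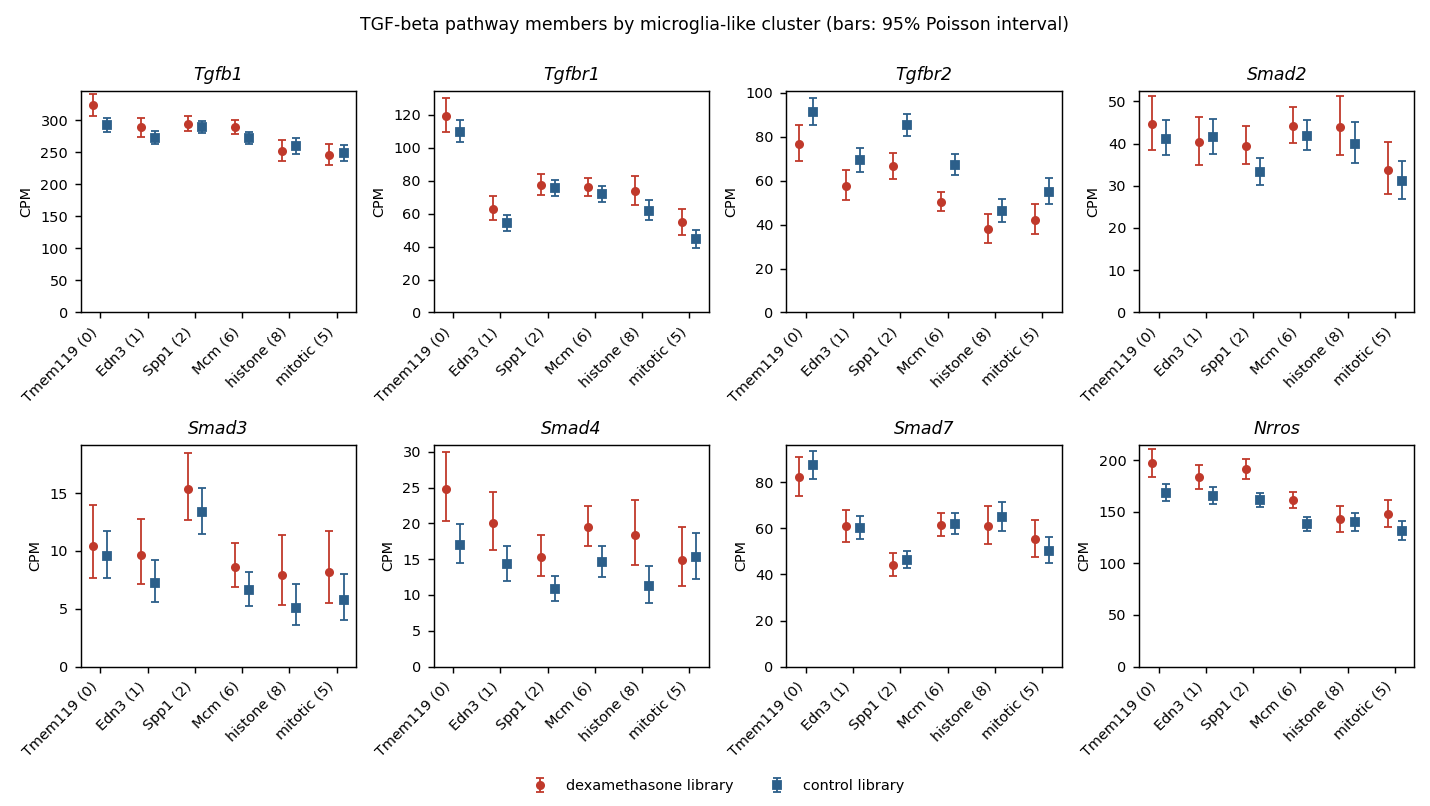
CPM (linear axis from 0, scaled per gene) of the 8 members in the 6 microglia-like clusters, 1 point per library with its exact Poisson interval. Tgfbr1 and Smad7 peak in cluster 0 and Smad3 in cluster 2, while Tgfbr2 lies lower in the dexamethasone library in each cluster.

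Between the libraries, Tgfbr2 was lower and Smad4 higher in microglia-like cells of the dexamethasone-exposed embryos, and the ligand was nearly level. Tgfbr2 stood at 56.2 CPM in the dexamethasone and 71.9 CPM in the control library, a log2 ratio of -0.35 (-0.43 to -0.28). Smad4 stood at 18.8 CPM (17.3 to 20.3) and 13.7 CPM (12.8 to 14.7), a log2 ratio of 0.45 (0.30 to 0.60). These 2 of 8 members were beyond the limit, 1 in each direction. Of 10601 genes with at least 100 UMIs, 17.1% were, 8.75% higher and 8.32% lower, so the count of members is near the background. The intervals do not include embryo-to-embryo or library variation, which 1 library per group cannot give. At a limit of 1.5-fold, 0 of 8 members and 4.98% of genes were beyond it.

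The other 6 members lay within the limit. Tgfbr1 had a log2 ratio of 0.11 (0.038 to 0.18), in the opposite direction to Tgfbr2. Tgfb1 differed by 0.055 (0.019 to 0.092) and Nrros by 0.18 (0.13 to 0.23). Smad2 differed by 0.12 (0.018 to 0.21) and Smad3 by 0.29 (0.093 to 0.49), both higher in the dexamethasone library. Smad7 differed by -0.044 (-0.12 to 0.035), an interval that held 0. The median over the 8 was 0.11, beside -0.0024 over all 10601 genes.

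The lower Tgfbr2 was found in each of the 6 microglia-like clusters and the higher Smad4 in 5. For Tgfbr2 the log2 ratio was -0.42 at its farthest from 0, in cluster 6, and -0.25 at its nearest, in cluster 0. Its interval excluded 0 everywhere but in cluster 8. For Smad4 it was -0.029 in mitotic cluster 5 and reached 0.71 in cluster 8, with an interval above 0 in the 5 clusters where it was higher. Nrros was higher in 6 of 6 clusters, from 0.031 to 0.24, and Tgfbr1 in 6 of 6, from 0.034 to 0.30. Smad3 was higher in 6 of 6, from 0.14 to 0.64, with an interval that held 0 in each. Smad7 was higher in 2 clusters and lower in 4, and no interval excluded 0.

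Per cluster, 1 to 3 members were beyond the limit, beside 18.9% to 22% of genes. In cluster 6 they were Tgfbr2, Smad3 and Smad4, where 18.9% of genes were beyond it, and in cluster 2 Tgfbr2 and Smad4, where 19.5% were. In cluster 1 they were Smad3 and Smad4 (20.5%), in clusters 0 and 8 Smad4 (21.6% and 20.5%) and in cluster 5 Tgfbr2 (22%). Without the 3 cycling clusters, Tgfbr2 was at -0.31 (-0.41 to -0.20), just inside the limit, and Smad4 at 0.50 (0.28 to 0.71), so 1 member remained beyond it, beside 17.7% of genes.

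**Figure D3:**
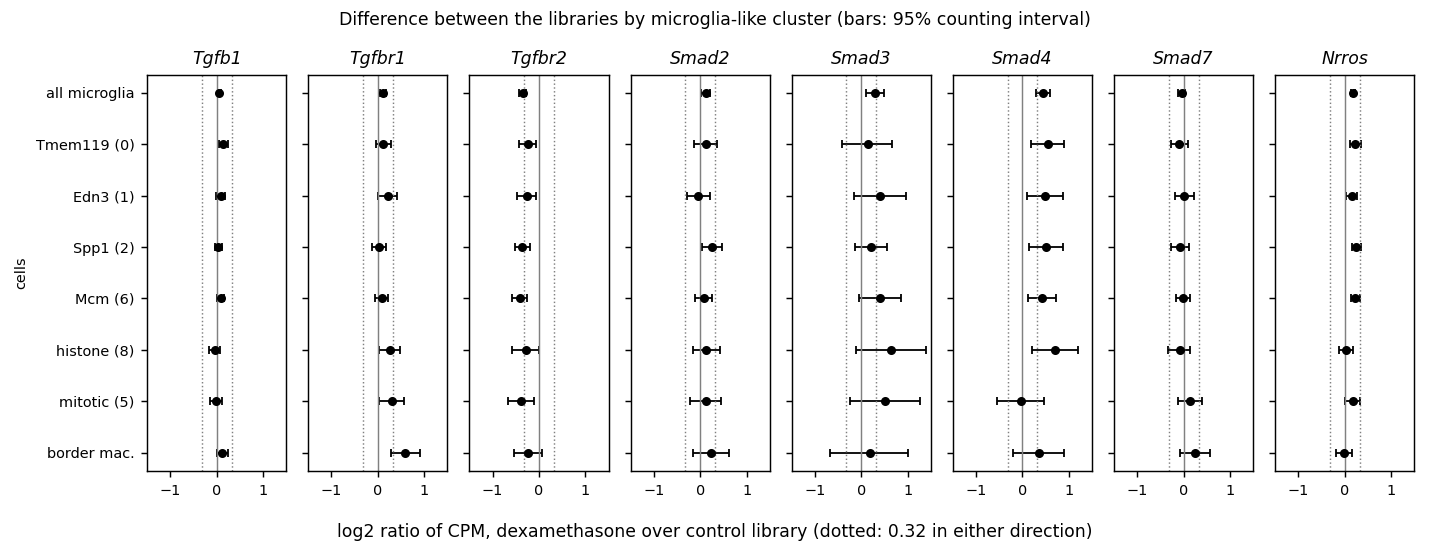
Log2 ratio of CPM, dexamethasone over control library, for the 8 members in microglia-like cells in each microglia-like cluster and, in the bottom row, in border-associated-macrophage-like cells, with exact conditional binomial intervals and dotted lines at 0.32. Tgfbr2 lies left of 0 in all 6 clusters and Smad4 right of 0 in all but cluster 5.

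Markers of other cell types also differed between the libraries within the microglia-like cells. The summed level of 12 neuron markers was 5.28 CPM in the dexamethasone and 27.8 CPM in the control library. The sum of the 12 neutrophil and monocyte markers in the files was 328.0 and 178.3 CPM, with Ltf and Mpo at 0 in both libraries. The sum of the 13 border-associated-macrophage markers was 2137 and 2088 CPM, with Clec4n and Cd209f at 0. Markers of the G2/M phase summed to 968.4 and 1258 CPM. The part of these differences in the results was not tested.

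Among border-associated-macrophage-like cells, the difference between the libraries was not the same over the class as within its larger cluster. Over the class, Tgfbr1 was at 61.0 and 40.5 CPM, a log2 ratio of 0.59 (0.28 to 0.90), and Smad4 at 18.1 and 14.2 CPM, at 0.35 (-0.21 to 0.90). These 2 of 7 members with enough UMIs were beyond the limit, both higher, beside 22.9% of 6147 genes. Within cluster 7, Tgfbr1 was at 0.24 (-0.08 to 0.56) and was no longer beyond it. There Tgfbr2, alone among members with at least 100 UMIs, was, at 55.8 and 76.4 CPM, a log2 ratio of -0.45 (-0.76 to -0.15), beside 25.1% of 5448 genes. Tgfbr2 was thus lower in the dexamethasone library in this macrophage cluster too. In neuron-like cells Tgfbr2 rested on 6 and 39 UMIs.

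Shares of cells with a UMI gave the same directions once depth was equal. Each microglia-like cell was thinned to 4300 UMIs, which left out 160 dexamethasone and 629 control cells that were shallower. Tgfbr2 was then found in 21.1% (19.7 to 22.6%) of dexamethasone and 26.6% (25.5 to 27.8%) of control cells, against 39.5% and 43.2% unthinned. Smad4 was found in 7.52% (6.62 to 8.49%) and 5.97% (5.37 to 6.62%), against 17.2% and 11.3% unthinned. These are the members beyond the limit, and for both the thinned intervals of the libraries did not overlap.

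Tgfb1 was found in 69.4% and 67.8% of thinned cells and Nrros in 50.1% and 47.9%, so most cells with the ligand could not be shown to carry every other member at this depth. Tgfbr1 was found in 27.4% and 26.2%, and a UMI of both Tgfbr1 and Tgfbr2 in 6.97% and 7.31%. Smad2 was found in 16.6% and 15.2%, Smad3 in 4.30% and 3.47% and Smad7 in 21.6% and 23.4%. Unthinned, Smad7 was found in 38.7% and 37.6%, the opposite order, in cells of unequal depth. In erythroid-like cells thinned alike, from median depths of 18205 and 21306 UMIs, members were found in 0% to 3.15% of 98 and 127 cells. At 0 cells, shares of up to 3.06% and 2.36% are allowed. Smad3 was found there in 2.04% (0.25 to 7.18%) and 0.79% (0.020 to 4.31%), intervals that overlapped those of microglia-like cells (3.62 to 5.07% and 3.02 to 3.98%), so its share was not separable from background at this depth.

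The wider pathway was read from 10 lists, and a member counted as measured with at least 20 UMIs in microglia-like cells. Over all 12530 measured genes, 6204 were higher and 6326 lower in the dexamethasone library, with a median log2 ratio of -0.0025, and 17.1% of those with at least 100 UMIs were beyond the limit. The limit was applied to genes with at least 100 UMIs. Genes beyond it are named beside those of the naming rule, and the former were chosen after their values were seen.

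Ligand and activation genes left few members beside Tgfb1 and Nrros. Of 3 ligands, Tgfb3 had 20 UMIs and Tgfb2 7, too few to count as measured. Of 17 latency and activation genes, 9 were measured, 3 higher and 6 lower, with a median of -0.10. Itgb1, an integrin chain, was at 397.8 and 435.9 CPM (log2 ratio -0.13) and Itgb5, another, at 230.6 and 226.3 CPM (0.027). Beyond the limit were Mmp2, a gelatinase, at 12.5 and 19.2 CPM (-0.62, -0.78 to -0.46), and the integrin chain Itgb3 at 2.41 and 3.16 CPM (-0.39, -0.79 to -0.0090), both lower. Integrin Itgb8, which activates latent TGF-beta in the brain, had 1 UMI in microglia-like cells.

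Among 5 receptors, 3 were lower and 2 higher, with a median of -0.28 that was -0.085 over the 4 with at least 100 UMIs. Eng, the co-receptor endoglin, was at 34.2 and 41.5 CPM, a log2 ratio of -0.28 (-0.38 to -0.18), the same direction as Tgfbr2. The co-receptor Tgfbr3 rested on 62 UMIs, at 0.26 and 0.92 CPM, a log2 ratio of -1.80 (-3.01 to -0.77). Among the 4 with at least 100 UMIs, Tgfbr2 alone was beyond the limit. Of 8 Smads, 6 were measured, 4 higher and 2 lower, with a median of 0.099. Smad6, the inhibitory Smad of the bone morphogenetic protein (BMP) branch, had 1 UMI.

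Smad partners and regulators were measured in full, 7 of 17 higher and 10 lower, with a median of -0.048. Ski, a co-repressor of Smad complexes, was at 15.7 and 22.1 CPM, a log2 ratio of -0.49 (-0.64 to -0.35), and was the 1 gene of this list beyond the limit. Its relative Skil was at 32.6 and 39.9 CPM (-0.29, -0.40 to -0.19). Fkbp1a, which binds the type I receptor, was at 245.0 and 253.3 CPM and Pmepa1, a pathway target that limits the signal, at 201.0 and 215.0 CPM.

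In the BMP and activin branch, 7 of 18 genes were measured, 4 higher and 3 lower, with a median of 0.25 that was 0.074 without the cycling clusters. The 3 genes beyond the limit were higher. Gdf15, a stress-induced cytokine of the family, was at 5.72 and 1.77 CPM, a log2 ratio of 1.69 (1.34 to 2.05). The type I receptors Acvr1 and Bmpr1a had log2 ratios of 0.39 (0.17 to 0.60) and 0.35 (0.038 to 0.67), at under 10 CPM. Bmpr2, the type II receptor, was at 41.8 and 47.6 CPM (-0.19). Of 8 non-Smad genes, 7 were measured, 3 higher and 4 lower, and 0 were beyond the limit, with Rhoa at 394.8 and 427.5 CPM, Rock1 at 150.6 and 164.8 CPM, Tab2 at 0.24 (0.15 to 0.32) and Daxx at -0.30 (-0.44 to -0.16).

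Of 18 common target genes, 13 were measured, 5 higher and 8 lower, with a median of -0.097. Beyond the limit were Ski and the transcriptional inhibitor Id2 (13.7 and 17.3 CPM, log2 ratio -0.34), both lower, and Tgfbi (1.32 and 0.99 CPM, 0.42, -0.18 to 1.01), higher with an interval that held 0. Junb, an immediate-early factor, was at 76.6 and 69.1 CPM (0.15). Ccn2, Ccn1, Cdkn2b and Col1a1 had 15 UMIs or fewer.

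Microglial genes known to need TGF-beta in the mouse were lower as a list in the dexamethasone library. Of 16, 15 were measured, 14 lower and 1 higher, with a median of -0.24. Sparc, a matrix-associated secreted protein, was at 1228 and 1764 CPM, a log2 ratio of -0.52 (-0.54 to -0.51), and Cx3cr1, the fractalkine receptor, at 288.4 and 361.3 CPM, at -0.33 (-0.36 to -0.29). These 2 of the 14 with at least 100 UMIs were beyond the limit, beside 17.1% of all genes. The 1 higher gene was Rhob, at 56.4 and 46.8 CPM (0.27). The list median was below 0 in 6 of 6 microglia-like clusters, from -0.27 in cluster 0 to -0.058 in cluster 8, where medians over all genes ran from -0.052 to 0.014. Cluster 0, led by Fos and Tmem119, held a smaller share of the microglia-like cells in the dexamethasone library.

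Microglial genes known to rise in the mouse without TGF-beta were mixed. All 14 were measured, 9 higher and 5 lower, with a median of 0.18. Beyond the limit and higher were Lgals3, a galectin (26.6 and 16.1 CPM, log2 ratio 0.73), Itgax (3.46 and 2.27 CPM, 0.61), the chemokine Ccl2 (76.5 and 52.5 CPM, 0.54), Ms4a7 (19.4 and 13.4 CPM, 0.53) and Cybb, an oxidase subunit (233.4 and 168.0 CPM, 0.47). Beyond the limit and lower were Cd74, the invariant chain (3.26 and 6.09 CPM, -0.90), and Lyz2, lysozyme (239.1 and 344.0 CPM, -0.53). Apoe was at 10536 and 11768 CPM and Spp1 at 343.4 and 279.2 CPM. The median was above 0 in 4 of 6 clusters and ran from -0.16 in cluster 8 to 0.30 in the Spp1-led cluster 2. The difference between the lists was not tested, and both hold genes that also mark cell classes or states.

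**Figure D4:**
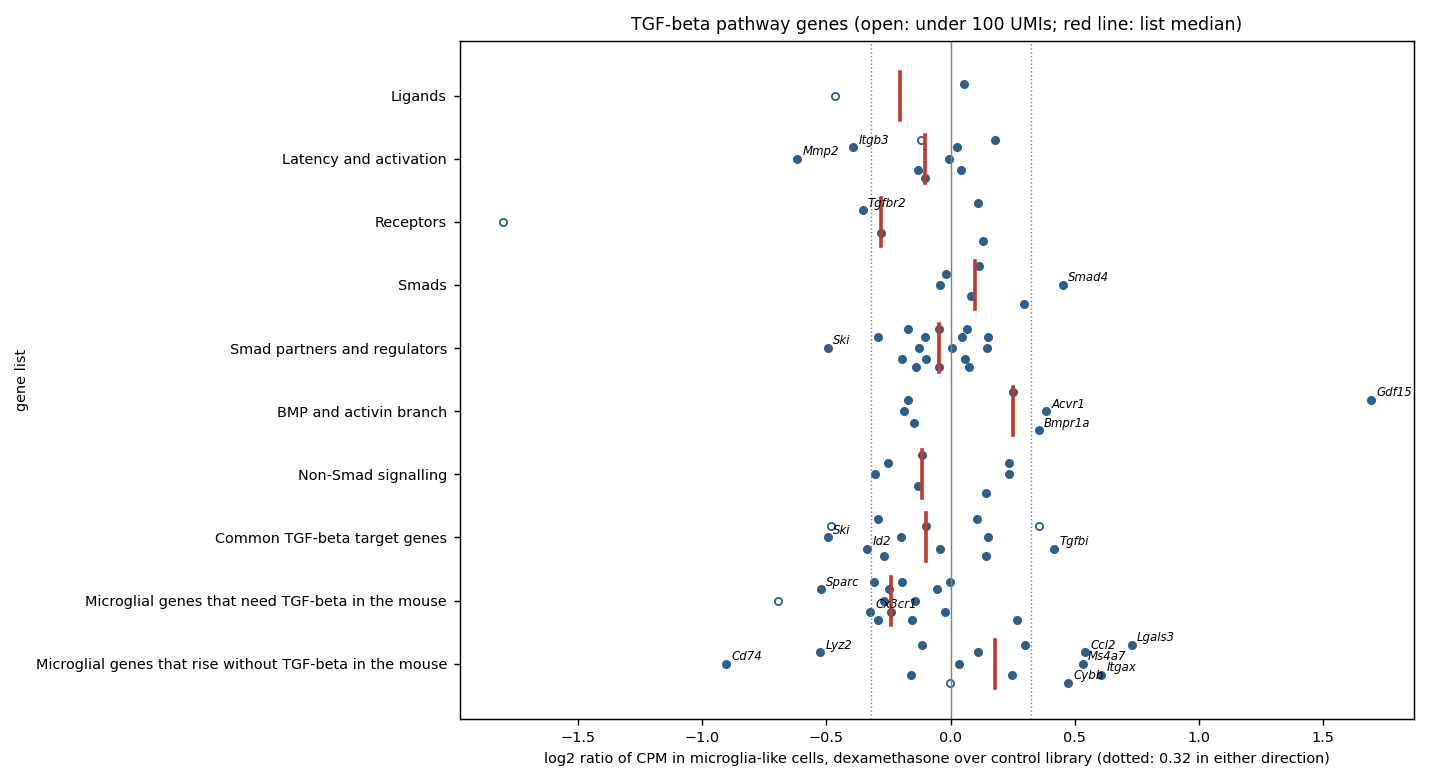
Log2 ratio of CPM in microglia-like cells, dexamethasone over control library, for each measured gene of the 10 lists, with the list median as a red line, dotted lines at 0.32 and open points under 100 UMIs. The list of genes that need TGF-beta has a median of -0.24 and the list of genes that rise without it 0.18.

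Genes with the profile most like each member were taken over 22 profiles, 11 clusters in each of 2 libraries, by Pearson correlation of log2(CPM + 1) among 5096 genes. The points share their libraries, depth and free RNA, and the values are descriptions with no test. The closest to Tgfb1 were Swap70 (0.992), Lcp2 (0.989) and Laptm5 (0.989), and to Nrros Laptm5 (0.991), Ctsz (0.988) and Tgfb1 itself (0.988). For Tgfbr1 they were Abhd12 (0.977), Lhfpl2 (0.972) and Tmcc3 (0.969), and for Tgfbr2 Fuca1 (0.988), Cd47 (0.986) and Glmp (0.985). Receptors thus had other nearest genes than the ligand, whose correlation was 0.884 with Tgfbr1 and 0.964 with Tgfbr2.

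For Smad2 the closest were Tbl1x (0.991), Ldb1 (0.988) and Klhdc3 (0.986), and for Smad7 Slc7a6 (0.965), Galnt2 (0.961) and Srgap2 (0.960). Smad3 and Smad4 had means under 20 CPM over the profiles, so their nearest genes, Tbc1d4 (0.933) and Gpbp1 (0.978), rest on few counts. Within the 12 microglia-like profiles alone, members were less alike. Tgfb1 kept 0.861 with Nrros, 0.785 with Tgfbr1 and 0.716 with Tgfbr2, and Smad3 and Nrros had 0.776. Tgfbr1 and Smad7 had 0.609, Tgfbr1 and Tgfbr2 0.525, and Tgfbr2 and Smad4 -0.026. The nearest genes there were Tie1 for Tgfbr1 (0.946) and Vamp7 for Tgfbr2 (0.977).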

How the data were processed

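Values are raw UMI counts per gene and barcode as deposited by the authors, made with Cell Ranger 7.0.0 on Rnor_6.0 per the submitters' processing notes. The annotation is not given in the sources used here. A cell was kept if it had 200 or more genes and no more than 20% mitochondrial UMIs. Doublets were not removed, and the highest Scrublet scores were removed only as an alternative. From 2000 genes variable within libraries, those mitochondrial, ribosomal, haemoglobin or on a pathway list were dropped, which left 1956 for clustering (scanpy 1.11.5, 30 components, 15 neighbours, Leiden resolution 0.5, no integration). Classes were named from marker lists by a rule set after the data were seen. Cluster 3 (288 dexamethasone and 265 control cells) and cluster 12 (6 and 40) stayed unnamed. Counts were summed per class and library and scaled to CPM, with exact Poisson, conditional binomial and Clopper-Pearson intervals. A library at 0 was set to 3 counts for ratios. Members always named were the 8, with 2 genes per list by level and 2 by ratio with at least 20 CPM, and 3 nearest genes per member. A few genes that this rule names are not reported here. Members and lists were chosen with earlier results of these data known. The ratio intervals, the fold limit and the thinning were tested on simulated counts that held counting error only. Clustering, naming and gene likeness were not part of that test.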

Additional observations from a re-analysis of the deposited data

Results flagged for a closer look

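Tgfb1 differed in direction between 2 cell classes. As a log2 ratio, dexamethasone over control, it was at 0.055 (0.019 to 0.092) in microglia-like cells and -0.30 (-0.56 to -0.043) in neutrophil-and-monocyte-like cells, where it stood at 187.1 and 230.2 CPM in 91 and 113 cells. The intervals lie on opposite sides of 0, and the difference between the classes was not tested. Tgfb1 was lower in unnamed cluster 3 too, at -0.28 (-0.56 to -0.0018), so this direction was not particular to neutrophil-and-monocyte-like cells.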

How the results depend on the processing

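Under 11 alternatives (stricter cell filters, likely doublets removed, resolution 1.0, a per-cell marker gate, pathway genes kept in the clustering, CPM without mitochondrial, ribosomal protein and haemoglobin genes, per-cell means, thinned cells, no cycling clusters, and 2 chosen after seeing the data, which were clustering from genes variable over the pooled libraries and a mean over clusters with equal weight), all 8 ratios between the libraries kept their sign in microglia-like cells. Tgfbr2 ranged from -0.39 to -0.31 and Smad4 from 0.33 to 0.50. Smad7 moved to -0.13 with per-cell means and to -0.17 in thinned cells. The count of members beyond a log2 ratio of 0.32 was 3 (with Smad3) at resolution 1.0 and in thinned cells, 1 (Smad4) without the cycling clusters, and 0 at a fold of 1.5, which 4.98% of genes passed. The median of non-Smad genes was -0.16 in thinned cells, and that of receptors -0.085 over members with at least 100 UMIs. Of 192 ratios between clusters, 3 turned: Smad3 in cluster 6 (0.025, resolution 1.0) and in cluster 5 (0.022, thinned), and Smad4 in cluster 2 (0.073, thinned), all in the dexamethasone library, and 26 moved beyond their interval. The cause was not tested. With the marker gate, the log2 ratio of microglia over border-associated macrophages was 1.14 and 1.85 for Tgfbr1 and 1.63 and 1.76 for Smad7. Smad3 and Smad4 are limited by depth. No paired analysis was possible because each group has 1 library and the labels carry no replicate numbers.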
